A study of Mus musculus with 12 samples.

Results

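The dystrophin-glycoprotein complex was described through 8 genes, Dmd, Utrn, Sgca, Sgcb, Sgcd, Dag1, Dtna and Sspn. They were taken by gene symbol and not by their values, and make up 8 of the 16673 genes listed in both deposited count tables. RNA of the left ventricle of male mice had been sequenced in 4 groups of 3 libraries. The mCKO mice (DDX5fl/fl MYH6Cre+) were 8 weeks old and untreated, and carried floxed alleles of Ddx5, an RNA helicase gene, with Cre expressed from the cardiomyocyte promoter of Myh6. Their controls, CTR1, were untreated 8-week-old Ddx5flox/flox mice. The iCKO mice (Ddx5flox/flox Myh6MerCreMer) carried the tamoxifen-activated Cre and received tamoxifen intraperitoneally at 20 mg/kg/day on 5 consecutive days. Their controls, CTR2, were Ddx5flox/flox mice given the same tamoxifen. Hearts of iCKO and CTR2 mice were taken after 7 days of tamoxifen injection, and neither the day from which these are counted nor the mice's age in weeks is given in the labels. All 4 groups shared the floxed alleles, and neither control group carried Cre, so effects of Cre and of Ddx5 loss cannot be told apart. Cells other than cardiomyocytes were not the target of deletion in either model, and Ddx5 was not measured by cell type.

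Dystrophin, the product of Dmd, is a long cytoskeletal protein that links actin beneath the muscle cell membrane to a group of membrane proteins, and through them to laminin in the basement membrane. Dystroglycan, made from Dag1, binds laminin outside and dystrophin inside. The sarcoglycans and sarcospan form a subcomplex beside it, and dystrobrevin and the syntrophins attach signalling proteins on the inner face. Loss of dystrophin causes Duchenne muscular dystrophy, loss of a sarcoglycan causes limb-girdle muscular dystrophy, and both can bring cardiomyopathy. Utrophin, encoded by Utrn on an autosome, is a close relative of dystrophin that can take its place at the membrane.

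The targeted gene was checked first. Ddx5 stood at 233, 232 and 218 CPM (read counts scaled to a common library size with TMM factors, the trimmed mean of M-values) in mCKO replicates 1, 2 and 3, against 636, 636 and 397 in CTR1. It stood at 216, 219 and 192 CPM in iCKO, against 566, 697 and 597 in CTR2. In both models every knockout library lay below every control library. The log2 fold change was -1.29 ± 0.20 (SE) in mCKO (edgeR quasi-likelihood test, Benjamini-Hochberg adjusted p = 0.17, and 0.0019 with the replicate number as a block) and -1.57 ± 0.15 in iCKO (edgeR adjusted p = 0.00017). The exons deleted are not named in the labels, so these gene counts may include reads of the floxed transcript. Libraries held between 19682268 and 25871882 counts, and each of the 8 genes had at least 733 counts in every library. The lowest of these belonged to Dmd in mCKO replicate 3. Whether replicates came from separate mice is not stated, so p-values measure only the spread between these libraries.

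The left ventricle held RNA of other cells, and 2 facts bear on many values below. The summed level of 10 cardiomyocyte marker genes was 54840 to 65862 CPM in iCKO libraries and 104013 to 118403 CPM in CTR2 libraries, and that of 8 fibroblast markers was 3160 to 5044 CPM in iCKO against 879 to 1037 CPM in CTR2. The fibroblast sum rested on 3 collagen genes (Col1a1, Col1a2 and Col3a1), with 2485 to 4295 CPM in iCKO and 148 to 312 CPM in CTR2, while the other 5 markers summed to 662 to 749 CPM in iCKO and 725 to 750 CPM in CTR2. Macrophage markers, 8 genes, summed to 574 to 1057 CPM in iCKO and 248 to 325 CPM in CTR2. In mCKO hearts the cardiomyocyte sum was 77675 to 107539 CPM against 89411 to 120527 CPM in CTR1, the fibroblast sum 1138 to 1985 CPM against 989 to 1628 CPM, and the macrophage sum 465 to 680 CPM against 348 to 426 CPM. In iCKO 7 of the 10 cardiomyocyte markers were called lower and 7 of the 8 macrophage markers higher, and in mCKO, with the block, 5 of 10 and 8 of 8. Over all genes 19.5% were lower and 25.2% higher in iCKO, and 6.45% and 7.32% in mCKO with the block. None of these markers was at 0 in any library. The cardiomyocyte markers did not move alike in iCKO. Mean CPM in iCKO and CTR2 was 17725 and 42769 for Myh6, 2706 and 12851 for Mb, and 2198 and 8456 for Pln. The 3 markers not called were Tnnt2 (8330 and 10062), Actc1 (12473 and 9957) and Tnnc1 (3207 and 2504). With library sizes alone Tnnc1 was called higher. Fewer cardiomyocytes and less RNA per cardiomyocyte cannot be told apart in such bulk samples, and changes particular to single markers were not tested. Replicate 3 stood apart from replicates 1 and 2 in 3 of the 4 groups. Genes with at least 5 kb of exons deviated in replicate 3 by a median of -0.19 log2 units in mCKO, -0.15 in CTR1, -0.48 in iCKO and 0.02 in CTR2, whereas genes with under 1.5 kb deviated by 0.40, 0.30, 0.55 and -0.07. The part of these differences in the results below was not tested, and values without the replicate 3 libraries are given where they change a call.

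In iCKO hearts Dmd fell most of the 8 genes, and Sgca, Sgcb and Sgcd fell with it. In mCKO hearts none of the 8 was called by edgeR in the fit of all mCKO and CTR1 libraries without the replicate number. With that number in the fit Dmd, Sgcd and Sspn fell, Dmd the most. Without both replicate 3 libraries, or with the replicate number and library sizes alone, Dmd was the only 1 of these called. Utrn, Dag1 and Dtna missed the threshold in both models. The promoters of the 4 genes that fell in iCKO hearts are shown because these genes moved together there. Each runs from 250 bases before to 50 bases after a transcription start given by RefSeq on GRCm38.p6 and is written 5′ to 3′ on the strand of its gene. Capitals mark matches, on either strand, to a CArG box, a MEF2 site or an E-box (CANNTG), which are motifs of muscle promoters. The starts used for Dmd and Sgcd lie inside the spans of these genes, whose outermost starts lie further upstream.
Dmd, chrX:82948620-82948919, plus strand: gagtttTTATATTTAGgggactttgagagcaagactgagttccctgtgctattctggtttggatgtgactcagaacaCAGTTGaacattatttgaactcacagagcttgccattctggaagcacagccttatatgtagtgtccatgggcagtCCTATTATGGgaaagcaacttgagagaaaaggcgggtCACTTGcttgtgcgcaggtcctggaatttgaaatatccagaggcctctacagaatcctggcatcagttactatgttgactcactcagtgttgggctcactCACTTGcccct
Sgca, chr11:94976278-94976577, minus strand: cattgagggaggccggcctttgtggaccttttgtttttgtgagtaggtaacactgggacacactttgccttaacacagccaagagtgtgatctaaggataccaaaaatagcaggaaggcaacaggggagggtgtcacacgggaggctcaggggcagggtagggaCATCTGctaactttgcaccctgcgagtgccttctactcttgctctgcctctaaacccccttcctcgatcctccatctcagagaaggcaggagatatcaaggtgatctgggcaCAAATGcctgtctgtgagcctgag
Sgcb, chr5:73647688-73647987, minus strand: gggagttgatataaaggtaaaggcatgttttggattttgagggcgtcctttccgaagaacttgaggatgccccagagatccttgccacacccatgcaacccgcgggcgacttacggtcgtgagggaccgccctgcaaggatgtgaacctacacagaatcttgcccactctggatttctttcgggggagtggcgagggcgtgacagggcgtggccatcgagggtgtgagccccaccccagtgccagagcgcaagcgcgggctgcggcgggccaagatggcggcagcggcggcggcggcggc
Sgcd, chr11:47379276-47379575, minus strand: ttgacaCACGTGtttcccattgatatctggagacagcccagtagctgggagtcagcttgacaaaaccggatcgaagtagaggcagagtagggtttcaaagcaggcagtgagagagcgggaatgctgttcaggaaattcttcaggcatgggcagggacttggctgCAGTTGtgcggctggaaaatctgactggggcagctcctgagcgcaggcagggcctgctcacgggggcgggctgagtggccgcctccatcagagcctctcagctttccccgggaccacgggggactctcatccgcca
The Dmd window held a CArG box whose first base lies 98 bases before the start, a MEF2 site 244 bases before it and 3 E-boxes. No capitals overlap. A second RefSeq entry for Dmd, chrX:85048045-85048344, lies near the start of the short transcripts, and held 3 GC boxes and none of the other motifs. The Sgca and Sgcd windows held 2 E-boxes each and the Sgcb window none. A CArG box was found in 1.63% of the 32851 RefSeq mouse promoter windows of this length, a MEF2 site in 3.19% and an E-box in 72.3%. A GC box (GGGCGG on either strand), not capitalised here, was also found in the Sgcb and Sgcd windows and in 35.7% of all windows. No motif of this search was in all 4 printed windows. These matches describe letters and were not tested as sites. Of the 8 genes, 7 had a promoter entry.

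Dmd, the dystrophin gene, spans 2390.4 kb of the plus strand of chromosome X (chrX:82814664-85205050, RefSeq on GRCm38). It had 54.6, 44.3 and 30.8 CPM in mCKO libraries, against 104, 96.1 and 102 CPM in CTR1 libraries. The groups did not overlap, and every mCKO library lay well under the lowest CTR1 library. The mean was 43.2 ± 12 CPM in mCKO and 101 ± 4.19 CPM in CTR1 (SD, n = 3 each). In iCKO hearts Dmd had 45.9, 82.4 and 56.9 CPM, against 204, 214 and 222 CPM in CTR2 hearts. The highest iCKO library held less than any CTR2 library, and replicate 2 was the highest of the 3 iCKO values. The mean was 61.8 ± 18.7 CPM in iCKO and 213 ± 9.01 CPM in CTR2 (SD, n = 3 each).

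Dmd was 3.45-fold lower in iCKO than in CTR2 (log2 fold change -1.79 ± 0.22 SE, edgeR quasi-likelihood test with Benjamini-Hochberg adjusted p = 0.00046). In mCKO hearts the fit without the replicate number gave -1.22 ± 0.21 with an edgeR adjusted p of 0.19. With that number added as a block the value was -1.25 ± 0.17, or 2.38-fold lower (edgeR adjusted p = 0.014). Without both replicate 3 libraries of mCKO and CTR1 the value was -1.02 ± 0.10 (edgeR adjusted p = 0.0017). DESeq2 without the block gave -1.23 ± 0.23 (adjusted p = 4e-05). Without the block Dmd missed the threshold with limma-voom (adjusted p = 0.18), and with edgeR in 1 fit of 12 libraries (0.071), with library sizes alone (0.16), with no filter (0.17) and in each fit without 1 library (0.13 to 0.85). The counts sum all transcripts of the gene. GENCODE lists a full-length coding transcript of 3678 codons and short ones of 617 and 604 codons, which gene counts cannot separate.

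Across all genes, the edgeR fit of mCKO against CTR1 without the block called 0 of 13353 genes (0.0%), with 1164 genes at an unadjusted p under 0.05. DESeq2 called 310 genes (2.32%) in the same comparison and limma-voom called 0. With the block, 13.8% of the genes were called, 7.32% higher and 6.45% lower in mCKO. Of the 8 complex genes, 3 were called lower with the block (Dmd, Sgcd and Sspn) and none higher. Without both replicate 3 libraries 1 of the 8 was called, Dmd, against 3.94% of all genes called lower. With the block and library sizes alone Dmd was again the 1 called, against 3.55% of all genes called lower. In iCKO against CTR2, 44.8% of 13548 genes were called, 25.2% higher and 19.5% lower. Of the 8 complex genes, 4 were called lower and none higher, namely Dmd, Sgca, Sgcb and Sgcd. Scaling by library size alone moved the split of all iCKO calls to 33.9% higher and 13.5% lower, and the median log2 fold change of all genes to 0.24 from 0.03. The same 4 complex genes were called under that scaling. The median log2 fold change of the 8 genes was -0.15 in mCKO, against 0.01 over all genes, and -0.67 in iCKO, against 0.03 over all genes.

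**Figure D1:**
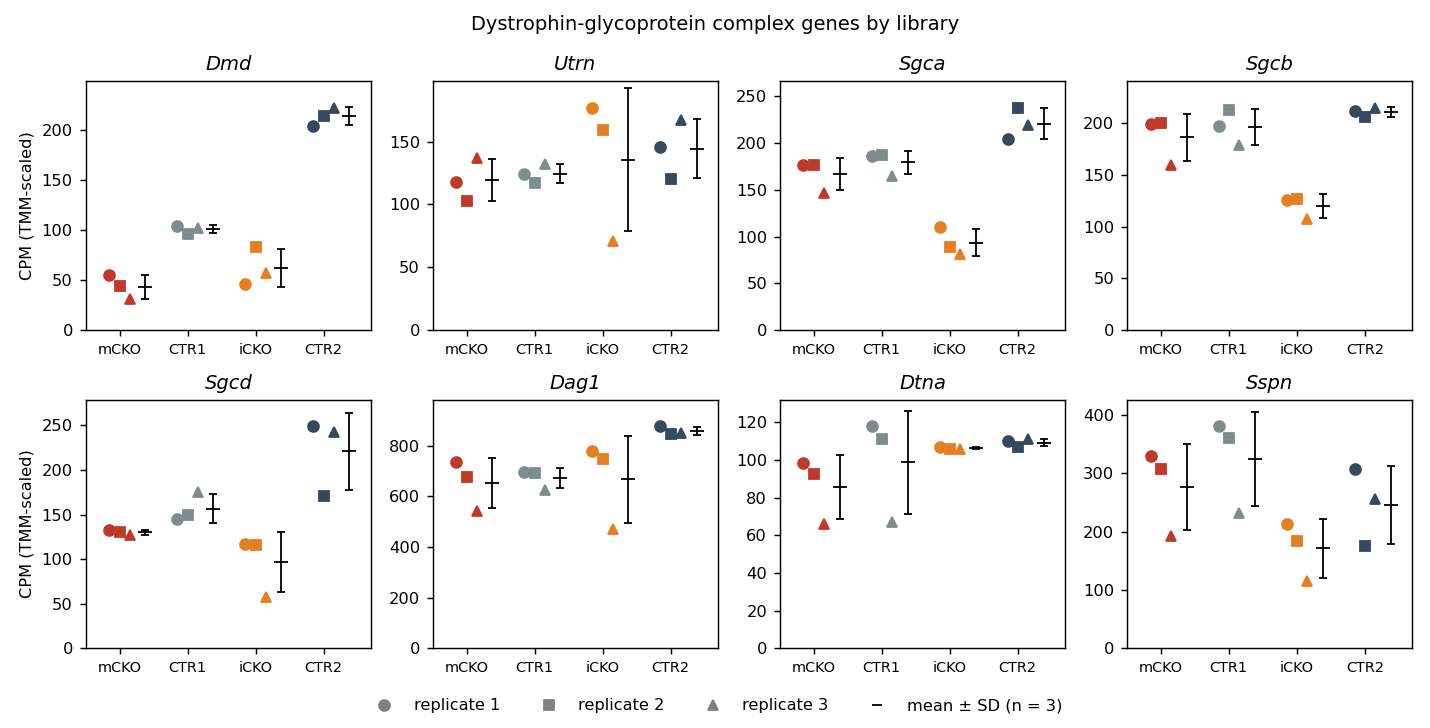
TMM-scaled CPM of the 8 complex genes (vertical axis, from 0) in each library of mCKO, CTR1, iCKO and CTR2, with a marker shape for each replicate and the mean ± SD (n = 3) beside the points. Dmd lies below its controls in both models, and Sgca, Sgcb and Sgcd lie below CTR2 in every iCKO library. The lowest iCKO library for Utrn, Sgca, Sgcb, Sgcd, Dag1 and Sspn is replicate 3. The 2 tables were scaled separately, so CTR1 and CTR2 are not compared.

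Utrn, the gene of utrophin (chr10:12382187-12869888, minus strand), had 118, 103 and 137 CPM in mCKO libraries, against 124, 117 and 132 CPM in CTR1 libraries. It had 177, 159 and 71.1 CPM in iCKO libraries, against 146, 120 and 167 CPM in CTR2 libraries. The groups overlapped in both models, and iCKO replicate 3 lay well below the other 2 iCKO libraries. The log2 fold change was -0.06 ± 0.13 in mCKO (edgeR adjusted p = 0.98) and -0.09 ± 0.31 in iCKO (edgeR adjusted p = 0.84). Leaving out iCKO replicate 3 turned the iCKO value to 0.18 ± 0.15 (edgeR adjusted p = 0.35). So no direction is given for Utrn.

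Because Dmd fell and Utrn did not meet the threshold, the balance of their transcripts was measured within each library, which needs no scaling between libraries. There were 2.16, 2.32 and 4.46 Utrn counts per Dmd count in mCKO libraries, against 1.19, 1.21 and 1.29 in CTR1 libraries. In iCKO libraries the ratio was 3.86, 1.93 and 1.25, against 0.715, 0.561 and 0.755 in CTR2 libraries. The groups did not overlap in either model, and CTR2 was the group in which Dmd counts exceeded Utrn counts. The ratio holds the same Dmd counts as above, so its separation is no separate support for the fall of Dmd. The part of cell mix in the ratio was not tested. Exons of Dmd and Utrn are of similar total length, 14.96 and 14.8 kb. Taken from mean log2 ratios, the ratio was 2.28-fold higher in mCKO than in CTR1 and 3.13-fold higher in iCKO than in CTR2. The two-sided exact permutation test gave p = 0.1 in each, the smallest value that 3 libraries against 3 allow. Leaving out 1 library at a time kept the log2 difference between 0.86 and 1.38 in mCKO and between 1.21 and 2.02 in iCKO.

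The level of Dmd was also taken relative to the 10 cardiomyocyte markers of the same library, as log2 CPM of Dmd minus their mean log2 CPM. This was -7.13, -7.47 and -7.76 in mCKO libraries, against -6.39, -6.51 and -6.21 in CTR1 libraries. It was -6.66, -5.57 and -6.36 in iCKO libraries, against -5.45, -5.16 and -5.25 in CTR2 libraries. Every knockout library lay below every control library in both models, with iCKO replicate 2 close to the lowest CTR2 library. The difference was -1.08 in mCKO and -0.91 in iCKO, each with a two-sided exact permutation p = 0.1, the smallest possible. Measured in this way, Sgca differed by -0.33 in iCKO, Sgcd by -0.32 and Sgcb by 0.09. The log2 difference of the other 4 genes in iCKO lay between 0.38 for Sspn and 0.88 for Dtna, and in mCKO that of the 7 genes other than Dmd lay between -0.09 and 0.12. In iCKO, 7 of the 10 markers used here were themselves called lower, with a median log2 fold change of -0.82, so the measure is not free of the change in cardiomyocyte transcripts.

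**Figure D2:**
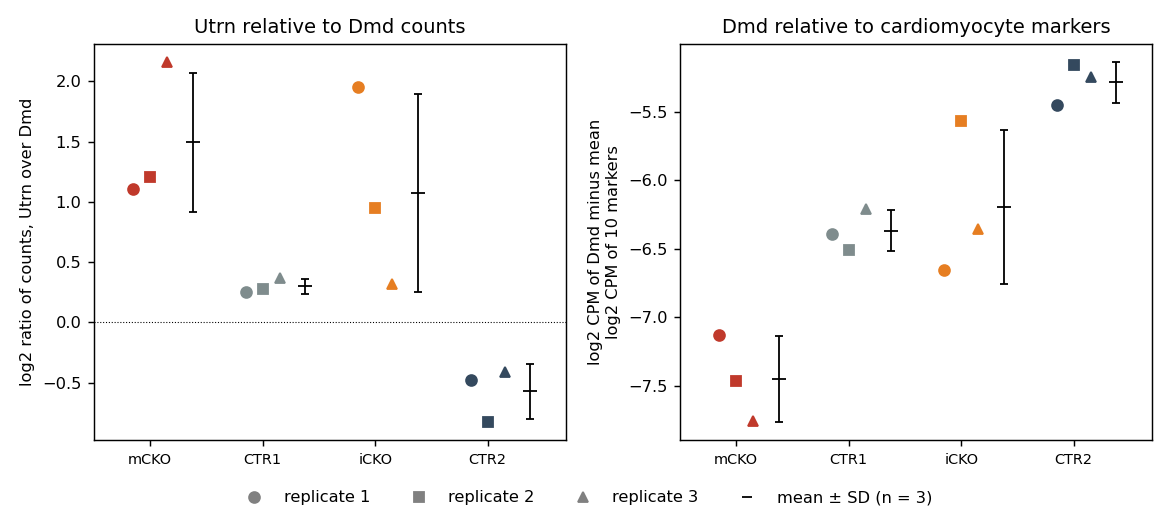
Left, log2 ratio of Utrn to Dmd counts in each library, with a dotted line at equal counts. Right, log2 CPM of Dmd minus the mean log2 CPM of 10 cardiomyocyte markers. Points are libraries, marker shapes are replicates, and bars are the mean ± SD (n = 3) of mCKO, CTR1, iCKO and CTR2. The knockout and control libraries of a model do not overlap in either panel.

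The sarcoglycans are membrane-spanning proteins that assemble together beside dystroglycan. Sgca encodes alpha-sarcoglycan (chr11:94962777-94976327, minus strand). It had 110, 89.3 and 81.3 CPM in iCKO libraries, against 205, 238 and 220 CPM in CTR2 libraries. All iCKO libraries lay far below the CTR2 libraries, and Sgca was 2.36-fold lower (log2 fold change -1.24 ± 0.16, edgeR adjusted p = 0.00061). In mCKO libraries it had 177, 177 and 147 CPM, against 186, 187 and 165 CPM in CTR1 libraries. These overlapped, with a log2 fold change of -0.10 ± 0.12 (edgeR adjusted p = 0.95, and 0.30 with the replicate block).

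Sgcb, the gene of beta-sarcoglycan (chr5:73632749-73647737, minus strand), had 126, 127 and 107 CPM in iCKO, against 212, 206 and 215 CPM in CTR2. The groups did not overlap, and the libraries within each were close together. Sgcb was 1.76-fold lower in iCKO (log2 fold change -0.82 ± 0.14, edgeR adjusted p = 0.0021). In mCKO it had 199, 200 and 160 CPM, against 197, 213 and 179 CPM in CTR1. The groups overlapped, and the log2 fold change was -0.08 ± 0.14 (edgeR adjusted p = 0.98, and 0.45 with the block).

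Sgcd, the gene of delta-sarcoglycan, spans 1018.4 kb (chr11:46971077-47989451, minus strand). It had 117, 116 and 57.9 CPM in iCKO, against 249, 171 and 242 CPM in CTR2. The groups did not overlap, and both held a library apart from the other 2, iCKO replicate 3 and CTR2 replicate 2. Sgcd was 2.27-fold lower in iCKO (log2 fold change -1.19 ± 0.28, edgeR adjusted p = 0.01), and -0.96 ± 0.17 without iCKO replicate 3 (edgeR adjusted p = 0.0035). In mCKO it had 133, 130 and 127 CPM, against 145, 150 and 175 CPM in CTR1. These groups did not overlap either, and the log2 fold change was -0.27 ± 0.11 (edgeR adjusted p = 0.56). With the replicate block it was -0.27 ± 0.07 (edgeR adjusted p = 0.036), and without both replicate 3 libraries -0.17 ± 0.06 (edgeR adjusted p = 0.13), so the call was lost without those libraries. Lower values without overlap were found in 7.3% of all genes tested in mCKO, and among the complex genes in Dmd and Sgcd. In iCKO they were found in 27.0% of all genes, and in 5 of the 8, the 4 called genes and Dag1.

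Sspn encodes sarcospan, a membrane protein that joins the sarcoglycan subcomplex (chr6:145931873-145965225, plus strand). It had 330, 308 and 192 CPM in mCKO, against 381, 361 and 232 CPM in CTR1. The groups overlapped, replicate 3 was the lowest in both, and within each replicate number the mCKO library lay below its CTR1 counterpart. The log2 fold change was -0.23 ± 0.27 without the block (edgeR adjusted p = 0.94) and -0.24 ± 0.06 with it (edgeR adjusted p = 0.028). The call with the block was lost without both replicate 3 libraries (-0.22 ± 0.07, edgeR adjusted p = 0.078). In iCKO Sspn had 214, 184 and 116 CPM, against 308, 175 and 256 CPM in CTR2. CTR2 replicate 2 lay within the iCKO values, and the log2 fold change was -0.52 ± 0.27 (edgeR adjusted p = 0.15). The exons of Sspn share 69 bases with the antisense gene Sspnos. Whether counting used the strand is not stated, so a share of these counts may belong to Sspnos.

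Dag1, the gene of dystroglycan (chr9:108204861-108263977, minus strand), had 735, 678 and 544 CPM in mCKO, against 697, 694 and 626 CPM in CTR1, and 780, 749 and 471 CPM in iCKO, against 877, 845 and 852 CPM in CTR2. The mCKO libraries overlapped CTR1, and each iCKO library lay below the lowest CTR2 library, replicate 3 by far the most. The log2 fold change was -0.04 ± 0.14 in mCKO (edgeR adjusted p = 0.99) and -0.36 ± 0.20 in iCKO (edgeR adjusted p = 0.18). Without iCKO replicate 3 the iCKO value was -0.21 ± 0.09 (edgeR adjusted p = 0.10).

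Dtna encodes alpha-dystrobrevin, a cytoplasmic relative of dystrophin that binds syntrophins (chr18:23310006-23659719, plus strand). It had 98.5, 92.6 and 66.2 CPM in mCKO, against 118, 111 and 67.3 CPM in CTR1. It had 107, 106 and 106 CPM in iCKO, against 110, 107 and 111 CPM in CTR2. In mCKO and CTR1 replicate 3 was the low library of both groups, and in the induced model all 6 libraries lay within a few CPM of each other. The log2 fold change was -0.20 ± 0.25 in mCKO (edgeR adjusted p = 0.95, and 0.10 with the block) and -0.04 ± 0.13 in iCKO (edgeR adjusted p = 0.83). Scaling by library size alone turned the iCKO value to 0.17 ± 0.13. The exons of Dtna share 90 bases with the antisense gene Gm47898, so its counts carry the same doubt as those of Sspn.

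**Figure D3:**
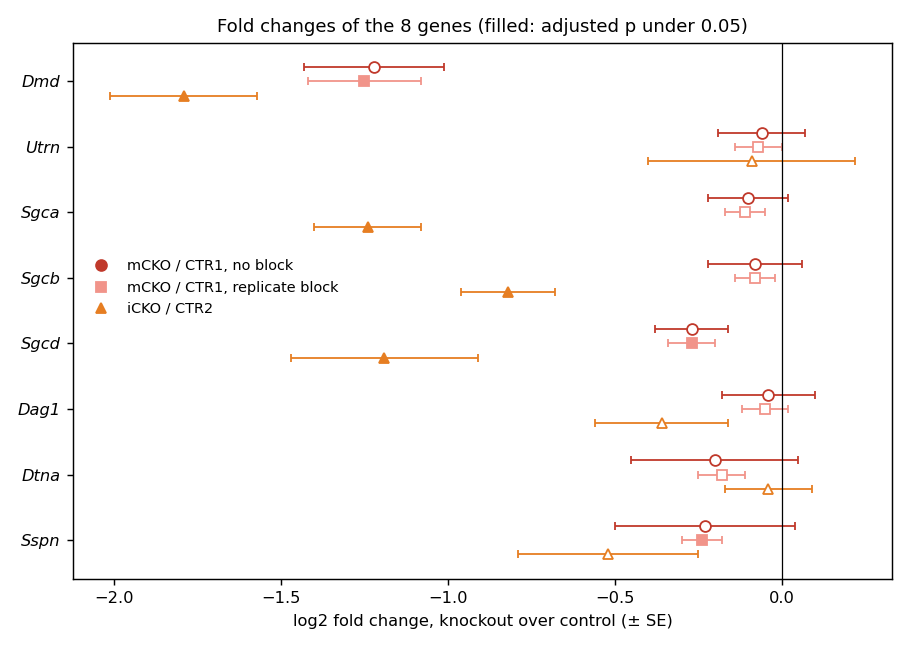
Log2 fold change, knockout over control, of the 8 complex genes with its standard error, for mCKO over CTR1 without and with the replicate block and for iCKO over CTR2. Filled symbols have an edgeR adjusted p under 0.05. In iCKO the filled symbols are Dmd, Sgca, Sgcb and Sgcd, and in mCKO they are Dmd, Sgcd and Sspn, all with the block.

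Whether the effect of deletion differed between the models was tested in 1 fit of all 12 libraries, as the log2 fold change in mCKO minus that in iCKO. A positive value means that the gene was less lowered, or more raised, in mCKO. Of 13871 genes, 20.8% were called, 11% positive and 9.88% negative, and among the 8 complex genes 2 were called, Sgca and Sgcb, both positive. Sgca differed by 1.18 ± 0.20 (edgeR adjusted p = 0.0018). Sgcb differed by 0.78 ± 0.18 (edgeR adjusted p = 0.011), and by 0.67 ± 0.20 without mCKO replicate 2, where its edgeR adjusted p of 0.05 no longer met the threshold. Sgcd differed by 0.96 ± 0.32 (edgeR adjusted p = 0.052), and with the replicate block by 1 ± 0.33 (edgeR adjusted p = 0.049), in a fit that called 28.1% of all genes. Sgcd also met the threshold with DESeq2 (adjusted p = 0.028), with limma-voom (adjusted p = 0.049), and with edgeR in 2 of the 12 fits without 1 library, those without iCKO replicate 1 (1.07) and iCKO replicate 3 (0.71). It missed it with library sizes alone (0.77, edgeR adjusted p = 0.14), also with the block (0.83, edgeR adjusted p = 0.12), and without both replicate 3 libraries of iCKO and CTR2 (0.63, edgeR adjusted p = 0.087) or of mCKO and CTR1 (1.04, edgeR adjusted p = 0.073). For Dmd the difference was 0.60 ± 0.32 (edgeR adjusted p = 0.20), so its fold changes in the models were not shown to differ. The edgeR adjusted p of the other 4 genes lay between 0.32 for Dag1 and 0.90 for Utrn. The models differ in the Cre transgene, tamoxifen, the time since deletion and the table, and may differ in age, which is not given for iCKO and CTR2. These cannot be told apart.

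Levels of different genes were compared per length, as CPM per kb of exon, within a group. In mCKO hearts the order was Dag1 (105 ± 15.9 CPM per kb, SD, n = 3), Sgca (96.3 ± 10.1), Sspn (55.4 ± 14.8), Sgcb (49.1 ± 6.03), Sgcd (37.2 ± 0.839), Dtna (8.90 ± 1.79), Utrn (8.06 ± 1.17) and Dmd (2.89 ± 0.799). In this order the ranges of Dag1 and Sgca, of Sspn and Sgcb, and of Dtna and Utrn overlapped, and Dmd lay below all the others. CTR1 had the same order, with Dmd at 6.74 ± 0.280 CPM per kb, just below the lowest libraries of Utrn and Dtna. iCKO had the same order too, with Dmd at 4.13 ± 1.25 CPM per kb and a range that overlapped that of Utrn. In iCKO Dag1 (108 ± 27.5) stood clear of Sgca (53.9 ± 8.5), and the ranges of Sspn, Sgcb and Sgcd overlapped. CTR2 was the group with another order. There Dmd (14.2 ± 0.602) lay above Dtna (11.4 ± 0.266) and Utrn (9.75 ± 1.60) without overlap, and Sgcd (63.1 ± 12.3) came after Sgca, with a range overlapping those of Sgcb and Sspn.

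By the root mean square difference of log2 CPM, centred on each model's controls, over all 12 libraries, the gene whose profile lay nearest to that of Dmd among 11773 genes was the deleted gene, Ddx5 (0.317 log2 units). Next were Gm52720 (0.353), Rhbdl3 (0.374), LOC118567479 (0.390) and Acat1 (0.394), the mitochondrial acetyl-CoA acetyltransferase. Their log2 fold changes lay between -1.12 and -0.71 in mCKO and between -2.25 and -1.41 in iCKO. All were called in iCKO and, with the block, in mCKO, against 44.8% and 13.8% of all genes. These genes were picked for nearness to Dmd in the same libraries. Their lower values follow from that choice and are no separate result. None of the other 7 complex genes was among these 5.

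Genes that act with the complex were taken as 4 lists. Of 12 further complex and syntrophin genes, 8 passed the filter on low counts in iCKO, where 2 rose, 2 fell and the median log2 fold change was 0.04, against 25.2% higher, 19.5% lower and a median of 0.03 over all genes. These counts lie near those shares. Sntb1, which encodes a syntrophin, had 29.7, 26.1 and 9.99 CPM in iCKO, against 8.65, 3.20 and 8.87 CPM in CTR2 (log2 fold change 1.67 ± 0.47, edgeR adjusted p = 0.02). It lost the call without iCKO replicate 2 (edgeR adjusted p = 0.061) and without CTR2 replicate 2 (edgeR adjusted p = 0.054). In mCKO with the block Sntb1 was higher (1.10 ± 0.20, edgeR adjusted p = 0.018).

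Cav3, the gene of the muscle caveolin that binds dystroglycan, moved in opposite directions. It had 86.9, 96.2 and 100 CPM in mCKO, against 107, 106 and 127 CPM in CTR1, with a log2 fold change of -0.26 ± 0.07 with the block (edgeR adjusted p = 0.023; 0.59 without it). It had 121, 118 and 257 CPM in iCKO, against 76.6, 70.7 and 66.9 CPM in CTR2 (1.21 ± 0.30, edgeR adjusted p = 0.011). The groups did not overlap in either model, and iCKO replicate 3 had the highest value. The difference between the models was -1.45 ± 0.37 (edgeR adjusted p = 0.017). In mCKO with the block, 1 of the 8 tested genes of this list was higher (Sntb1) and 2 were lower, Cav3 among them, with a median of 0.10. Over all genes that fit called 7.32% higher and 6.45% lower. Without both replicate 3 libraries, neither Sntb1 nor Cav3 was called.

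Of 18 enzymes that build the laminin-binding sugar chain of dystroglycan, 1 rose and 4 fell in iCKO, against 25.2% higher and 19.5% lower over all genes, with a median log2 fold change of 0.14. Scaled by library size alone, 5 rose and 3 fell, against 33.9% and 13.5%. Pomgnt2, which extends the chain's core, had 6.65, 7.58 and 6.60 CPM in iCKO, against 16.4, 17.4 and 17.3 CPM in CTR2 (log2 fold change -1.29 ± 0.15, edgeR adjusted p = 0.00039). B4gat1, which primes the laminin-binding repeat, fell by 0.98 ± 0.14 (edgeR adjusted p = 0.00099). Gmppb, an enzyme of sugar donor synthesis, rose to 15.5, 19.9 and 24.4 CPM in iCKO, against 7.29, 6.40 and 5.97 CPM in CTR2 (1.61 ± 0.21, edgeR adjusted p = 0.00056). In mCKO with the block 1 of the 18 was called, B3galnt2 (-0.35 ± 0.09, edgeR adjusted p = 0.027). This count lies near the 6.45% of all genes called lower in that fit. None was called without both replicate 3 libraries.

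Of 10 genes listed as matrix ligands of dystroglycan, 3 rose and 2 fell in iCKO. These counts lie near the 25.2% higher and 19.5% lower of all genes, and the median log2 fold change was -0.03. The list also holds the laminin chains Lamb1, Lamb2 and Lamc1, and Nid1, which are not taken here as binding dystroglycan themselves. The laminin genes went both ways. Lama5 had 152, 150 and 78.3 CPM in iCKO, against 339, 387 and 347 CPM in CTR2 (log2 fold change -1.50 ± 0.25, edgeR adjusted p = 0.0021), and Lamb2 fell by 0.88 ± 0.18 (edgeR adjusted p = 0.0044). Lama4 rose by 0.80 ± 0.21 (edgeR adjusted p = 0.016), and missed the threshold without iCKO replicate 2 (edgeR adjusted p = 0.063). Lamc1 was the other laminin gene that rose. Bgn, the gene of the proteoglycan biglycan, had 697, 967 and 737 CPM in iCKO, against 179, 128 and 172 CPM in CTR2 (2.32 ± 0.20, edgeR adjusted p = 0.00012). Bgn was the 1 gene of this list called in mCKO with the block (0.53 ± 0.06, edgeR adjusted p = 0.00052), and stayed called without both replicate 3 libraries (0.50). The fit with the block called 7.32% of all genes higher and 6.45% lower. Of the 8 fibroblast markers 5 were called higher (Col1a1, Col1a2, Col3a1, Pdgfra and Pcolce) and Dcn lower in iCKO, and 4 higher in mCKO with the block, and their part in these values was not tested.

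Of 24 costamere and membrane repair genes, which tie the contractile apparatus to the membrane beside the complex or reseal it, 17 rose and 2 fell in iCKO, with a median log2 fold change of 1.04. Over all genes 25.2% rose and 19.5% fell, with a median of 0.03. Flnc, a filamin that binds sarcoglycans, had 4284, 3505 and 3050 CPM in iCKO, against 635, 479 and 698 CPM in CTR2 (2.58 ± 0.21, edgeR adjusted p = 9.2e-05). Anxa2, a repair annexin, had 325, 382 and 496 CPM in iCKO, against 65.8, 64.4 and 56.5 CPM in CTR2 (2.69 ± 0.20, edgeR adjusted p = 7.4e-05). Itga7, the laminin-binding integrin subunit of muscle, rose by 1.53 ± 0.14 and Myof, the gene of myoferlin, by 1.89 ± 0.18 (edgeR adjusted p = 0.00015 each). The genes that fell were Ank2 and Trim72, the membrane repair protein MG53. In mCKO with the block 3 rose (Anxa2 by 0.23, Anxa5 by 0.22 and Myof by 0.45) and Trim72 fell by 0.28, with a median of 0.02. Over all genes 7.32% rose and 6.45% fell in that fit. Without both replicate 3 libraries Trim72 alone was called. Between the models 13 of the 24 differed negatively and 1 positively, against 9.88% and 11% of all genes, and with the block 17 and 1, against 13.3% and 14.8%. The macrophage sum was higher in these hearts as well, and its part was not tested.

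**Figure D4:**
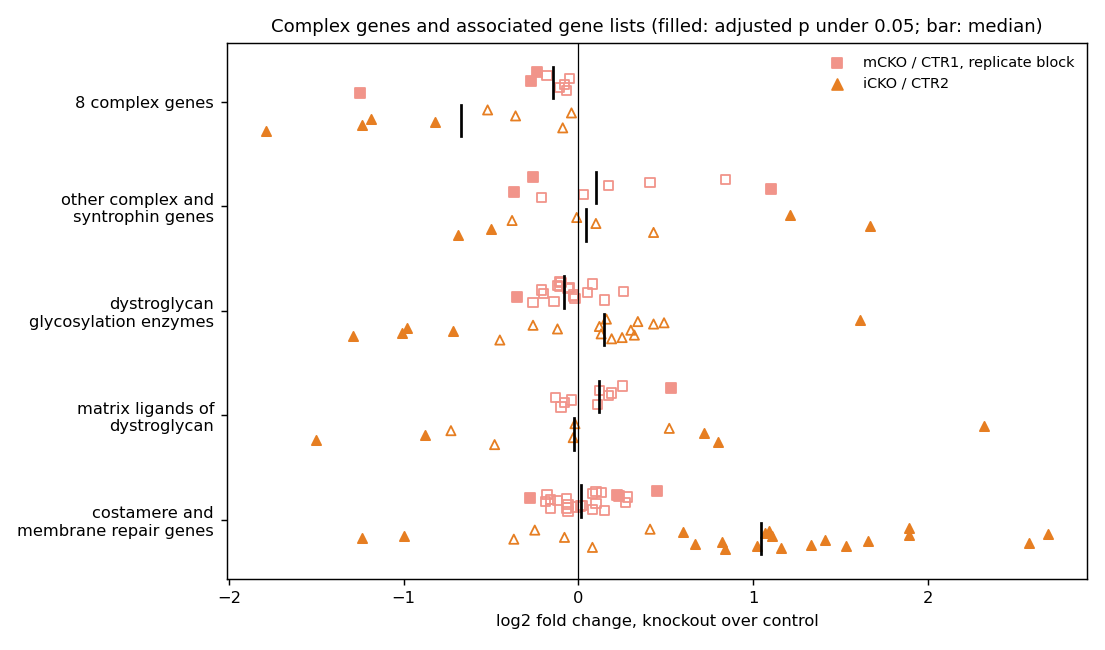
Log2 fold change, knockout over control, of each tested gene of the complex and of 4 associated lists, for mCKO over CTR1 with the replicate block (squares) and iCKO over CTR2 (triangles). Filled symbols have an edgeR adjusted p under 0.05 and bars are medians. In iCKO the complex genes lie at or left of 0, with a median of -0.67, and the costamere and membrane repair genes mostly right of it, with a median of 1.04.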

How the data were processed

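Per the labels' protocols, Trizol was used for RNA and a stranded TruSeq mRNA kit for the libraries. The submitters' processing notes name HISAT2, DESeq and GRCm38. Not given in the sources used here are versions, the counting tool, the annotation and the use of strand. Whole-number read counts per gene were deposited in 2 tables, mCKO with CTR1 (17260 genes) and iCKO with CTR2 (17325 genes), with 16673 genes in both and library totals of 19682268 to 25871882.

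CPM with TMM library sizes and log2 CPM with a prior count of 2 were computed here from the deposited counts. Genes were filtered with filterByExpr (minimum count 10, minimum total 15) and tested with edgeR 4.0.16 in R 4.3.3 (quasi-likelihood, robust), each model in a fit of its own, and the difference of models in 1 fit of 12 libraries. Benjamini-Hochberg adjustment ran over all genes tested, with calls under 0.05, two-sided. All 8 genes passed the filter in both tables. Errors are standard errors of the log2 fold change unless SD is named. DESeq2 1.42.0, limma 3.58.1 voom, library sizes without TMM, no filter, the replicate block and leaving out libraries were alternatives. The scripts were tested on simulated counts.

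Libraries of mCKO and CTR1 with the same number departed from their group means in the same way (correlations across genes of 0.464, 0.532 and 0.823 for replicates 1, 2 and 3), each over the limit of 0.1 for pairing, so block values stand beside the others there. Number 1 against number 2 gave 0.553 and 0.529, and number 3 against the others -0.623 to -0.680, so what pairs is mainly replicate 3. In the iCKO and CTR2 table the correlations were 0.0583, -0.0896 and -0.161. What a number marks is not stated.

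The 8 genes, the gene lists and the markers were chosen with earlier results of these data known. Of each associated list, up to 4 genes with the smallest adjusted p among those called were named, and a few further genes were named after their values were seen (Lamc1, Ank2, Trim72, Anxa5 and B3galnt2). Exon lengths came from GENCODE M21 and coordinates and promoters from RefSeq on GRCm38. Some genes counted in the lists are not reported here by name. No column of values was left unmapped.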

Additional observations from a re-analysis of the deposited data

Results flagged for a closer look

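The effect of deletion on Sgca differed between the models, by 1.18 ± 0.20 on the log2 scale (mCKO effect minus iCKO effect, edgeR quasi-likelihood contrast, adjusted p = 0.0018). The gene was lower in 3 of 3 iCKO libraries than in any CTR2 library, while mCKO and CTR1 overlapped. The value lay between 1.07 and 1.27 when 1 library at a time was left out, and was called in 12 of 12 such fits. The effect on Sgcb differed by 0.78 ± 0.18 (edgeR adjusted p = 0.011), with the same overlap pattern, a range of 0.66 to 0.89 and a call in 11 of 12 such fits. Both were picked out by the test of the difference itself. Cardiomyocyte markers differed the same way, 4 of 10 called positive with a median of 0.71, against 11% of all genes called positive. Their part in these differences was not tested.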

How the results depend on the processing

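Dmd, Sgca, Sgcb and Sgcd stayed called lower in iCKO under each alternative run, including the replicate block, library sizes alone, DESeq2, limma-voom, no filter and each of the 6 fits without 1 library. Their highest edgeR adjusted p without 1 library was 0.038, for Sgcd. All genes called in iCKO numbered 4302 to 6770 in those 6 fits, against 6068. In mCKO, 0 genes were called, and 0 to 1 without 1 library, 4 with no low-count filter, 24 in 1 fit of 12 libraries, 310 with DESeq2, 1839 with the replicate block, 2055 with the block and library sizes alone, and 1040 without both replicate 3 libraries. Of the 8 complex genes the block called 3, and DESeq2, the block with library sizes alone, and the fit without both replicate 3 libraries called 1, Dmd. For the difference between models, calls among the 8 lay between 1 and 3 without 1 library, and all calls between 2064 and 3220, against 2892, and 3901 with the block. The replicate block changed no call among the 8 in iCKO. The block together with library sizes alone, and leaving out both replicate 3 libraries of iCKO and CTR2, were added after seeing the data.

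None of the values that changed sign was called where its sign changed. In mCKO, Utrn was 0.02 with library sizes alone, 0.01 with the block added, and -0.17 to 0.03 without 1 library. Dag1 in mCKO was 0.03, 0.02 with the block added, 0.02 without both replicate 3 libraries and -0.14 to 0.07 without 1 library. Sgcb in mCKO lay between -0.14 and 0.02 without 1 library, and Anxa2 between -0.40 and 0.86. In iCKO, Utrn was 0.13 with library sizes alone, 0.04 with the block added, 0.29 without both replicate 3 libraries and -0.33 to 0.18 without 1 library. Dtna in iCKO was 0.17 with library sizes alone and 0.17 with the block added. The difference between models for Utrn was -0.11 with library sizes alone, -0.04 with the block added, -0.02 without both replicate 3 libraries of mCKO and CTR1, -0.34 without those of iCKO and CTR2, and -0.22 to 0.27 without 1 library. That for Dtna lay between -0.39 and 0.04 without 1 library. The cause was not tested.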

Other observations

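Dmd and Sgcd are long genes, with spans of 2390.4 and 1018.4 kb. Genes with a span of at least 500 kb, a group and a limit chosen after values were seen, were called lower in iCKO in 47 of 131 cases (35.9%), against 19.6% of the 13514 tested genes with a span. They were called higher in 20 of 131 cases (15.3%), against 25.3%, and their median log2 fold change was -0.46 against 0.03. These shares are a description with no test of the difference. Genes with at least 5 kb of exons were called lower in 19.1%, with a median of -0.12. In mCKO with the replicate block, 15 of the 131 long-span genes were called lower (11.5%, against 6.45% of all) and 12 higher (9.16%, against 7.32%), with a median of -0.01. In the difference between models 29 of 140 long-span genes were positive (20.7%, against 11%) and 9 negative (6.43%, against 9.90%). The long-span genes include Dmd and Sgcd. Sgca and Sgcb, which also fell in iCKO, span 13.6 and 15 kb.

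Skeletal muscle markers summed to 39.7 to 63.7 CPM in iCKO libraries and 3.09 to 3.67 CPM in CTR2 libraries, where all 8 listed genes were in the table and 3 of the 4 tested were called higher (Mylpf, Tnnt3 and Tnni2). Of the adult fast myosins, Myh1 and Myh4 were at 0 counts in all 3 iCKO libraries and Myh2 in 2 of them. In mCKO libraries the sum was 8.19 to 12.8 CPM, against 3.92 to 4.94 CPM in CTR1, over 6 of the 8 genes. Skeletal muscle also expresses the complex, and its part in the values of the 8 genes was not tested. Endothelial markers summed to 780 to 891 CPM in iCKO and 1137 to 1310 CPM in CTR2, and 4 of 8 were called lower. Smooth muscle and pericyte markers summed to 1077 to 1272 CPM in iCKO and 1677 to 1758 CPM in CTR2, with 3 of 9 called higher and 3 lower. The lower sum rested mainly on Abcc9 and Rgs5. Abcc9 had 57.1 to 248 CPM in iCKO and 643 to 713 CPM in CTR2, and Rgs5 188 to 282 and 598 to 663 CPM. Acta2 went the other way, with 203 to 691 CPM in iCKO and 79.1 to 149 CPM in CTR2. Over all genes 25.2% were called higher and 19.5% lower in iCKO. Schwann cell markers summed to 10 to 11.2 CPM in iCKO and 7.72 to 9.08 CPM in CTR2.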
